A study of Homo sapiens with 5 samples.

Results

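Tumours from mice whose food lacked methionine, tryptophan and niacin (the combined omission) were compared with tumours from mice whose food lacked methionine alone. Methionine was therefore absent from both foods, and tryptophan with niacin was the difference in the food. All genes with a mean of at least 10 counts over the 3 libraries compared were taken as members, which gave 8613 of the 26364 genes listed. The choice used the mean over both diets and not the difference between them.

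The tumours grew from HT-29, an established human colon cancer line, after cells had been implanted under the skin of the back of NOD SCID mice. These mice were female, 5 weeks old and lack T and B cells, so the tumours grew in hosts without adaptive immunity. There was 1 library of the combined omission and there were 2 of the methionine-free food, beside 1 of food without tryptophan and niacin and 1 of normal food, which are given as context. The submitters state a rearing time of 2 weeks on the diets and also speak of a period of 3 weeks. The labels do not say whether the methionine-free pair came from separate mice, so the p-values reflect no more than the spread of these samples, and that spread may be technical. The spread entered the main test as a trend over members, not gene by gene. The combined-omission and normal libraries bear short titles and the others longer, numbered ones, and if the styles stand for separate handling, this and the diet cannot be told apart.

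Methionine is the first amino acid of nearly all new proteins and, as S-adenosylmethionine, the methyl donor of the cell. Tryptophan and niacin are precursors of NAD, and spent nicotinamide is methylated at the cost of S-adenosylmethionine. Cells short of amino acids slow translation and induce ATF4 target genes. Cells short of oxygen stabilise HIF transcription factors, which raise genes for glycolysis, blood vessel growth and collagen modification.

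Library totals were 433930 counts in the combined omission and 553502 and 678618 in the methionine-free pair. A count was worth 2.27 CPM (counts scaled to a common library size, with TMM factors for differences in composition) in the combined omission and 1.78 and 1.57 CPM in the pair. The median member had 25 counts in the combined omission and 32 and 35 in the pair. Of the 15 markers of colon epithelium, 15 were above 0 in all 3 libraries and 12 were members. KRT8, the leading one, stood at 6441 CPM in the combined omission, against 6674 and 8357 CPM without methionine, and LGALS4 at 1466 CPM, against 1321 and 1816 CPM. The markers that were not members had few counts. CDH17 had 10 in the combined omission, against 8 and 11, CDX2 had 5, against 2 and 7, and CEACAM5 had 14, against 9 and 4. Of 19 fibroblast markers 10, of 13 endothelial markers 9 and of 17 leukocyte markers 12 were at 0 in all 3 libraries, the pan-leukocyte gene PTPRC among them. The cells of the host are mouse cells and the counts are under human symbols, so these zeros do not show how much host tissue the tumours held. Summed fibroblast markers stood at 77.3 CPM in the combined omission, against 90.9 and 78.3 CPM, and endothelial ones at 81.8 CPM, against 82.0 and 47.0 CPM. In the combined omission the endothelial sum came only from ENG (21 counts) and ESAM (15 counts). In bulk tumour RNA, fewer cells of a type and less RNA per cell cannot be told apart.

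Of the pathway lists, hypoxia-induced genes and semaphorins with plexins had the highest medians in the combined omission against methionine-free food (log2 0.79 and 0.72). Interferon-stimulated genes (−0.61), mitochondrial ribosomal proteins (−0.61) and the respiratory chain (−0.60) had the lowest, beside −0.01 over all members. By edgeR's quasi-likelihood test with Benjamini-Hochberg adjustment, 3 of 8613 members (0.0348%) were higher in the combined omission, namely the mucin MUC2, the semaphorin receptor PLXNA3 and the hexokinase HK2, and 0 were lower. At an unadjusted p below 0.05 the same test gave 424 members higher (4.92%) and 265 lower (3.08%), and DESeq2 called 0 in either direction with 29 higher and 6 lower before adjustment. A second count used no test. It took a member as beyond both methionine-free libraries when its log2 CPM in the combined omission was at least 2-fold above the higher or below the lower of them. This held for 91 members above (1.06%) and for 122 below (1.42%). By any amount, 3143 members (36.5%) lay above both and 3180 (36.9%) below both.

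The sequences of the promoters of 3 glycolytic genes are shown because these genes were the members of the glycolysis list that lay beyond both libraries with the smallest p, and because HIF binds sites that hold the core letters ACGTG or, less commonly, the letters GCGTG. They are the RefSeq windows from 250 bases before to 50 bases after an annotated start in GRCh38.p14, chr2:74833877-74834176 on the plus strand, chr12:6914330-6914629 on the plus strand and chr3:48556754-48557053 on the minus strand. They are written 5′ to 3′, and capitals mark every match to a motif on either strand. The motif ACGTG reads as CACGT when it lies on the other strand, and the motif GCGTG then reads as CACGC. Matches may overlap.
HK2: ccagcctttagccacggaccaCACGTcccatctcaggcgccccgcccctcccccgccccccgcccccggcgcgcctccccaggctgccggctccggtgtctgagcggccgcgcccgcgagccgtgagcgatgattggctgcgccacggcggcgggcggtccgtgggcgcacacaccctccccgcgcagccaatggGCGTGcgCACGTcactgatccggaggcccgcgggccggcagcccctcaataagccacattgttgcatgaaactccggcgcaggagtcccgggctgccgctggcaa
ENO2: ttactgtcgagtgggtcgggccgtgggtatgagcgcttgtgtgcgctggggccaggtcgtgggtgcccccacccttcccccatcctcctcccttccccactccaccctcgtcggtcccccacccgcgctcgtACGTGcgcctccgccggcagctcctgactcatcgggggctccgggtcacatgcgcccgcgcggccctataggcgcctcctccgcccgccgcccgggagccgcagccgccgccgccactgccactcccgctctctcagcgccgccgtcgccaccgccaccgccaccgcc
PFKFB4: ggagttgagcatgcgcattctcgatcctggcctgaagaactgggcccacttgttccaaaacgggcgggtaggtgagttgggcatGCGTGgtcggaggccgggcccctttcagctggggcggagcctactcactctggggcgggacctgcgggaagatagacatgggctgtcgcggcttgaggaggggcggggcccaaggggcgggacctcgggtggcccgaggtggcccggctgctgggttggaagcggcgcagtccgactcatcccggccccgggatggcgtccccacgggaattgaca
The HK2 window held 3 matches and the windows of ENO2 and PFKFB4 held 1 each. HK2 has another annotated start, whose window is not shown. Such letters were common: 48.4% of all 35116 RefSeq windows held at least 1 match, as did 61.8% of the 9862 windows of members found in that table. They were found in 20 of 23 windows (87.0%) of the hypoxia-induced genes, 31 of 48 windows (64.6%) of the glycolysis list, 6 of 13 (46.2%) of the mucus list and 56 of 78 (71.8%) of the cytosolic ribosomal proteins. Several windows can belong to 1 gene, and a match is a run of letters, not a measured binding site.

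HK2, which phosphorylates glucose in the first step of glycolysis, had 195.5 CPM in the combined omission, against 62.4 and 47.0 CPM in the methionine-free pair. The pair lay close together and the combined omission stood well above both. The fitted log2 fold change was 1.84 (SE 0.42, adjusted p = 0.0404 by edgeR's quasi-likelihood test with Benjamini-Hochberg adjustment). The context libraries had 36.3 CPM without tryptophan and niacin and 215.6 CPM on normal food. This call ended with total-count scaling (edgeR adjusted p = 0.15), with filterByExpr (0.0521), with no filter (0.123), with a transcript length correction (log2 fold change 1.67, 0.153), with length and GC content corrected (0.123), and with the additive model, DESeq2 and limma-voom.

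ENO2, a glycolytic enolase, had 175.0 CPM in the combined omission, against 62.4 and 42.3 CPM without methionine (log2 fold change 1.75, edgeR adjusted p = 0.0837). PFKFB4, whose product sets the level of an activator of phosphofructokinase, had 59.1 CPM, against 12.5 and 12.5 CPM (2.22, edgeR adjusted p = 0.0899). It rested on 26 counts, against 7 and 8. The related PFKFB3 had 225.0 CPM in the combined omission, against 108.8 and 73.6 CPM (1.31, edgeR adjusted p = 0.271). None of these 3 genes passed the test. They were named for lying beyond both libraries, so the gap between the groups follows from that choice. The glucose transporter SLC2A1 stood at 1470 CPM in the combined omission, against 871.9 and 854.7 CPM, above both but inside the 2-fold line. The enzymes with the highest levels in the list were nearly level: GAPDH had 3830 CPM in the combined omission, against 3596 and 4111 CPM, and PKM 2270 CPM, against 1817 and 2229 CPM. In the combined omission the glycolysis list thus held a group of regulated isoforms well above the pair, beside abundant enzymes inside or near its range. Of its 24 members 1 was called higher and 0 lower, 16 had a log2 fold change above 0 (all members 48.9%), and 4 lay beyond both libraries above (all members 1.06%). The list's median log2 fold change was 0.19, against −0.01 over all members.

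Among hypoxia-induced genes, NDRG1, a stress gene that low oxygen induces strongly, had 2325 CPM in the combined omission, against 759.5 and 627.7 CPM in the methionine-free pair (log2 fold change 1.75, SE 0.56, edgeR adjusted p = 0.271). VEGFA, the main growth factor for blood vessels, had 463.6 CPM, against 174.7 and 150.3 CPM (1.51, edgeR adjusted p = 0.177). ADM, which encodes the vasodilator adrenomedullin, had 70.5 CPM, against 19.6 and 28.2 CPM (1.54, edgeR adjusted p = 0.313). In each of these the combined omission stood at least 2-fold above both libraries of the pair, which was a rule for naming them. The values of the pair were close to each other, yet none of these genes passed. P4HA1, a prolyl hydroxylase of collagen, had 172.7 CPM in the combined omission, against 67.8 and 76.7 CPM. INSIG2, a retention factor of sterol sensing, had 90.9 CPM, against 41.0 and 42.3 CPM. Both also lay beyond the pair, with log2 fold changes of 1.25 and 1.12. NDRG1 alone passed when transcript length was corrected (1.67, edgeR adjusted p = 0.0328).

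Of the 22 hypoxia-induced members, 0 were called in either direction and 9 were higher at an unadjusted p below 0.05 (all members 4.92%). A log2 fold change above 0 was found in 20 (all members 48.9%). Above both methionine-free libraries lay 20 (all members 36.5%), and 5 did so by at least 2-fold (all members 1.06%). The median log2 difference of the list was 0.75 from replicate 1 and 0.83 from replicate 2, so the list stood apart from both libraries by a like amount. The fitted median was 0.79 and it was 0.72 after the length correction. CA9, the membrane carbonic anhydrase, with 325.0 CPM against 192.6 and 180.0 CPM, and BHLHE40, a transcriptional repressor, with 86.4 CPM against 49.9 and 50.1 CPM, are examples of the members inside the 2-fold line, chosen after their values were seen. The exceptions were ZNF395, with 38.6 CPM in the combined omission against 46.4 and 34.4 CPM, and FAM162A, with 68.2 CPM against 64.2 and 84.5 CPM. Of the HIF subunits and oxygen sensors 8 of 9 lay above both libraries (all members 36.5%), with a median of 0.44. HIF1A itself, the subunit that oxygen destabilises as protein, had 79.5 CPM against 60.6 and 65.7 CPM, a small difference on its RNA (log2 fold change 0.33, edgeR adjusted p = 0.90).

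**Figure D1:**
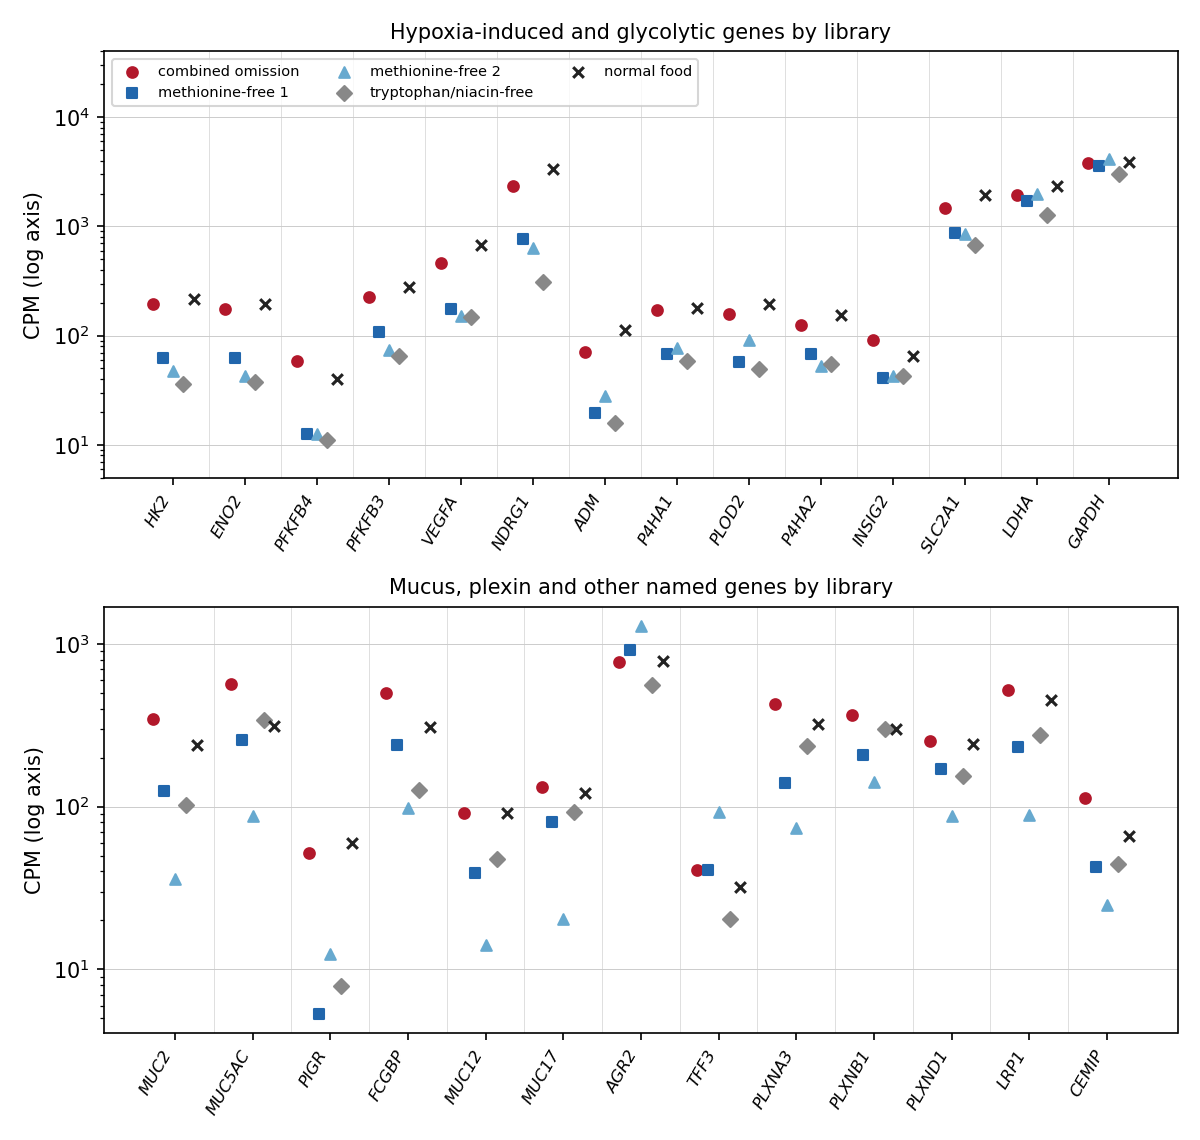
Levels in CPM (log axis) of hypoxia-induced and glycolytic genes (top) and of mucus, plexin and other named genes (bottom) in each of the 5 libraries, 1 point per library. In the top panel the methionine-free points lie together below the combined omission for HK2 (195.5 CPM against 62.4 and 47.0 CPM), while in the bottom panel replicate 2 often lies far below replicate 1, as for MUC2 (347.7 CPM against 124.8 and 36 CPM).

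MUC2, the gel-forming mucin that builds the mucus layer of the colon, had 347.7 CPM in the combined omission, against 124.8 and 36 CPM in the methionine-free pair. The combined omission was above both, but the pair itself was spread by more than 3 times. The test did not allow for this spread: the SE was 0.42 for MUC2 and also 0.42 for HK2, whose pair was close. The log2 fold change was 2.13 (SE 0.42, adjusted p = 0.00314 by edgeR's quasi-likelihood test with Benjamini-Hochberg adjustment). In the context libraries MUC2 stood at 102.7 CPM without tryptophan and niacin and at 240.4 CPM on normal food. The call ended with total-count scaling (edgeR adjusted p = 0.101), the additive model, DESeq2 and limma-voom. The annotation at hand gives MUC2 a coding transcript of 393 bases, far too short for this mucin, so the length-corrected fits say nothing of it.

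MUC5AC, a gel-forming mucin typical of the stomach, had 570.5 CPM in the combined omission, against 256.7 and 87.7 CPM (log2 fold change 1.73, edgeR adjusted p = 0.0837). PIGR, which carries immunoglobulin A across epithelia, had 52.3 CPM, against 5.35 and 12.5 CPM (2.49, edgeR adjusted p = 0.0837). FCGBP, a protein secreted into mucus, had 497.7 CPM, against 238.9 and 98.6 CPM, and the membrane mucin MUC12 had 90.9 CPM, against 39.2 and 14.1 CPM. All 4 lay at least 2-fold above both libraries, for which MUC5AC, PIGR and FCGBP were named. In all but PIGR replicate 2 was the lower of the pair. PIGR rests on 23 counts, against 3 and 8, a count ratio of 5.70 (95% interval from counting, 2.67 to 13.0). AGR2, a protein-folding factor for mucins, had 777.3 CPM in the combined omission, against 914.7 and 1282 CPM, and the trefoil peptide TFF3 had 40.9 CPM, against 41.0 and 92.4 CPM. Of the 17 members of the mucus list 1 was called higher and 0 lower, and 5 lay beyond both libraries above and 0 below (all members 1.06% and 1.42%). A log2 fold change above 0 was found in 11 of them (all members 48.9%), and the fitted median of the list was 0.18. The median difference was 0.03 from replicate 1 and 0.38 from replicate 2. Mucin genes carry repeats and have near relatives, so reads with several positions, whose treatment is not given in the sources used here, make these counts uncertain.

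PLXNA3, a plexin through which semaphorins act on cells, had 427.3 CPM in the combined omission, against 139.1 and 73.6 CPM in the methionine-free pair. It stood about as far above the pair as MUC2 did, and replicate 2 was again the lower of the pair. The log2 fold change was 2.01 (SE 0.43, adjusted p = 0.00982 by edgeR's quasi-likelihood test with Benjamini-Hochberg adjustment), and the call ended with total-count scaling (adjusted p = 0.101), with the length correction (1.66, 0.12), with length and GC content corrected (1.40, 0.123), and with the additive model, DESeq2 and limma-voom. Its relative PLXNB1 had 365.9 CPM, against 206.8 and 140.9 CPM, and PLXND1 had 252.3 CPM, against 169.4 and 87.7 CPM. Of the 16 semaphorins, plexins and neuropilins, 15 had a log2 fold change above 0 and 13 lay above both libraries, 1 of them by 2-fold (all members 48.9%, 36.5% and 1.06%). The median difference was 0.46 from replicate 1 and 1.01 from replicate 2, and the median transcript of the list was 5783 bases long, against 3497 bases over all members with a length. The fitted median of 0.72 became 0.55 after the length correction.

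The next 5 genes were also among the 12 members beyond both libraries above with the smallest p. LRP1, an endocytic receptor, had 518.2 CPM in the combined omission, against 231.8 and 89.2 CPM (log2 fold change 1.70, edgeR adjusted p = 0.0899), and the proteoglycan CSPG4 had 356.8 CPM, against 171.2 and 65.7 CPM (1.60). CEMIP, which takes part in the breakdown of hyaluronan, had 113.6 CPM, against 42.8 and 25 CPM (1.75, edgeR adjusted p = 0.0952). The zinc finger factor MZF1 had 127.3 CPM, against 41.0 and 32.9 CPM (1.79), and TRIM66, a chromatin-associated TRIM protein, had 106.8 CPM, against 39.2 and 23.5 CPM (1.78). LRP1 and CSPG4 resembled the mucins in that replicate 2 was far below replicate 1, whereas in MZF1 the pair was close. CEMIP also stands in the list of WNT targets, of which 11 of 12 had a log2 fold change above 0 and 10 lay above both libraries (all members 48.9% and 36.5%). The median of the list was 0.56 (0.35 against replicate 1). AXIN2, the feedback inhibitor of the pathway, had 172.7 CPM, against 114.1 and 81.4 CPM, and the secreted WNT antagonist DKK1, the exception, had 75 CPM, against 130.2 and 129.9 CPM. Neither AXIN2 nor DKK1 passed (edgeR adjusted p = 0.63 and 0.70).

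**Figure D2:**
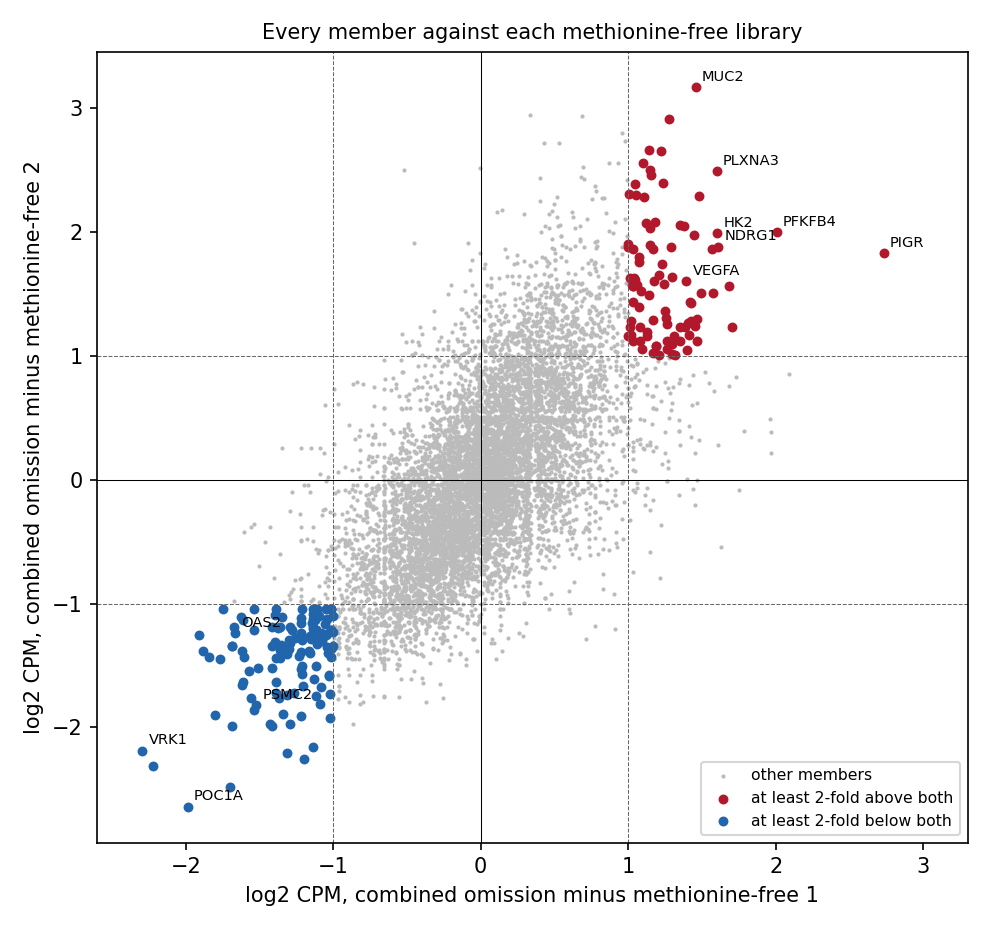
Log2 CPM difference of the combined omission from methionine-free replicate 1 (x axis) and replicate 2 (y axis) for each of the 8613 members, with dashed lines at 2-fold. Red points are the 91 members beyond both libraries above and blue points the 122 below; MUC2 lies much farther up the y axis than along the x axis, while PFKFB4 lies near the diagonal.

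The combined omission resembled replicate 1 more than replicate 2. Across members the median absolute log2 difference was 0.31 from replicate 1 and 0.48 from replicate 2, beside 0.36 between the pair. From the context libraries the combined omission differed by 0.29 (tryptophan/niacin-free) and by 0.24 (normal food), the smallest of these values. The normal library shares its short title style, and handling and diet cannot be told apart. At least 2-fold higher than replicate 1 were 206 members and lower 189, and for replicate 2 these numbers were 823 and 614. The difference went with transcript length. When members were put into 4 equal groups by length, in the shortest (median 1626 bases) the median log2 difference was −0.14 from replicate 1 and −0.51 from replicate 2, and in the longest (median 7084 bases) it was 0.10 and 0.48. Of the members beyond both libraries above, 8 were in the shortest group and 39 in the longest, and of those below 57 and 12. The pair lay within 1.5-fold of each other for 62 of the 91 members above (68.1%) and for 108 of the 122 below (88.5%), against 72.5% of all members. Against the normal library the medians of the combined omission in the 4 groups stayed between −0.02 and 0. The part of transcript length in these results was not tested beyond the length-corrected fit.

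**Figure D3:**
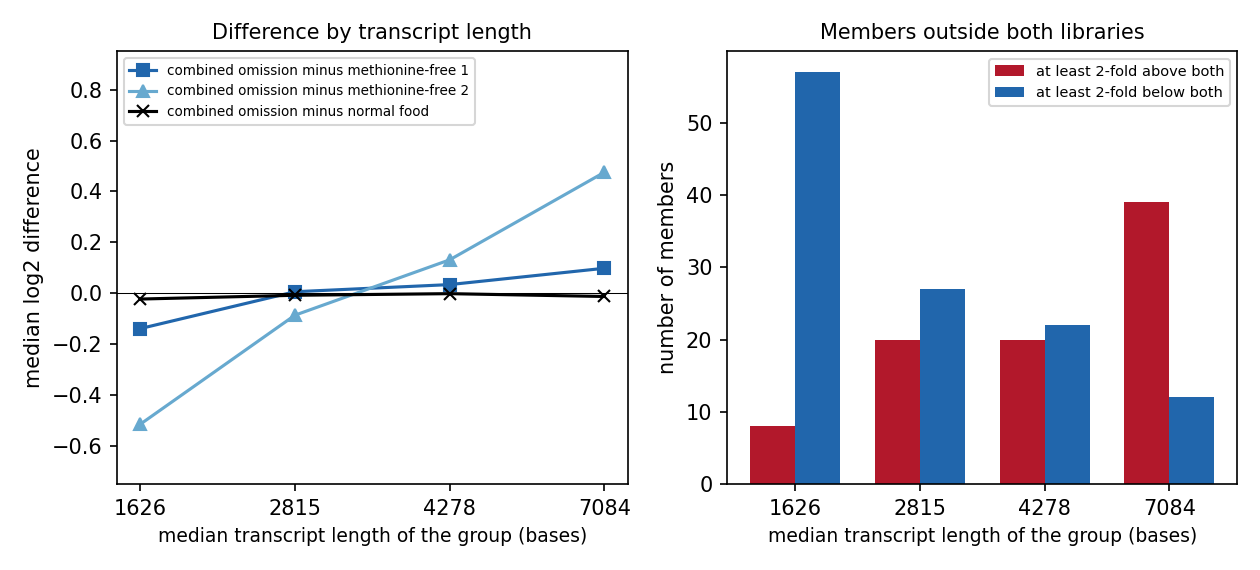
Left, median log2 difference of the combined omission from each methionine-free replicate and from normal food in 4 equal groups of members by transcript length; right, number of members beyond both methionine-free libraries in each group. The line against replicate 2 runs from −0.51 to 0.48, that against replicate 1 from −0.14 to 0.10, and of the members above 8 fall in the shortest and 39 in the longest group.

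In the lower direction no member passed. PSMC2, an ATPase of the proteasome, had 54.5 CPM in the combined omission, against 162.2 and 200.4 CPM in the methionine-free pair (log2 fold change −1.73, SE 0.49, edgeR adjusted p = 0.168). DCTPP1, which clears modified nucleotides, had 34.1 CPM, against 90.9 and 134.6 CPM (−1.73, edgeR adjusted p = 0.196), and DERA, an aldolase of deoxyribose phosphate, had 20.5 CPM, against 66.0 and 76.7 CPM (−1.80). The pair was close in PSMC2 and DERA. The genes of this paragraph were picked for lying beyond both libraries below, so their gap from the pair follows from that choice. The ATP synthase subunit ATP5J2 had 68.2 CPM, against 148.0 and 223.8 CPM, and SDHAF2, an assembly factor of succinate dehydrogenase, had 20.5 CPM, against 44.6 and 86.1 CPM. The mitochondrial ribosomal genes MRPS23 and MRPS22 had 25 and 11.4 CPM, against 64.2 and 89.2 CPM for MRPS23 and 28.5 and 61.0 CPM for MRPS22. ATRAID had 54.5 CPM, against 114.1 and 169.1 CPM.

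Several of the lowest rest on 1 or 2 counts in the combined omission. VRK1, a nuclear kinase active in the cell cycle, had 2 counts, against 19 and 20, and was 7.15-fold lower (95% interval from counting, 1.85 to 61.1). ARL6IP6 had 2 counts, against 18 and 22 (7.34-fold lower, 1.90 to 62.7). TMEM128, a membrane protein, had 2 counts, against 12 and 25 (6.78-fold lower, 1.75 to 58.1). POC1A, a centriole protein, had 1 count, against 10 and 19 (10.6-fold lower, 1.76 to 434.4). These intervals cover counting error only, and they leave the size of the difference hardly known.

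Cytosolic ribosomal protein genes lay on 1 side in value: 0 of 79 had a log2 fold change above 0, 76 lay below both libraries and 0 by as much as 2-fold (all members 48.9%, 36.9% and 1.42%). The median was −0.57, with −0.25 against replicate 1 and −0.82 against replicate 2, and it was −0.19 after the length correction. RPL4, a protein of the large subunit, had 2673 CPM in the combined omission, against 3191 and 4317 CPM. Mitochondrial ribosomal proteins (71 members, median −0.61, 50 below both, 3 by at least 2-fold) differed by −0.27 from replicate 1 and −0.80 from replicate 2, and by −0.31 after the length correction. The respiratory chain with ATP synthase (76 members, median −0.60, 54 below both, 1 by at least 2-fold) differed by −0.29 and −0.86, and by −0.27 after the length correction. Within the respiratory list SDHA, the catalytic subunit of succinate dehydrogenase, had 347.7 CPM, against 358.4 and 305.2 CPM, and lay inside the pair. For the proteasome the median was −0.43 over 38 members, with 25 below both; it was −0.21 against replicate 1, −0.63 against replicate 2 and −0.21 after the length correction. None of these lists had a member past the test.

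Most interferon-stimulated genes and HLA class I genes had lower values in the combined omission than in both methionine-free libraries, though not all. OAS2, a sensor of double-stranded RNA, had 18.2 CPM in the combined omission, against 64.2 and 47.0 CPM (log2 fold change −1.60), and DDX58, which encodes the RNA sensor RIG-I, had 15.9 CPM, against 39.2 and 47.0 CPM (−1.43). Their counts were low, 8 for OAS2 and 7 for DDX58. IFI27 had 120.5 CPM, against 237.1 and 278.6 CPM (−1.10, edgeR adjusted p = 0.52). LGALS3BP, a secreted glycoprotein and the most abundant member, lay above both, with 859.1 CPM, against 779.1 and 651.2 CPM. Of 28 interferon-stimulated members 17 lay below both libraries and 4 above both, 2 were beyond 2-fold below, and 8 had a log2 fold change above 0 (all members 36.9%, 36.5%, 1.42% and 48.9%). The median was −0.61, with −0.37 against replicate 1 and −0.78 against replicate 2, and −0.37 after the length correction. HLA-B, a heavy chain of class I, had 75 CPM, against 153.3 and 164.4 CPM, and B2M, its light chain, had 752.3 CPM, against 1159 and 1453 CPM. Of 16 members of the class I list 13 lay below both libraries, 1 by at least 2-fold (all members 36.9% and 1.42%), with a median of −0.56, and −0.36 after the length correction. The sum of the leukocyte marker list, nearly all of it LYZ, ran in the same direction, at 2048 CPM in the combined omission, against 2680 and 3686 CPM. PTPRC and CSF1R were at 0 throughout, so that sum is a value of LYZ and not a measure of leukocytes. A part of leukocytes in the values of these lists was not tested. No member of either list passed the test, and HLA genes have near-identical copies, so their counts are uncertain.

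Among the genes nearest to the missing nutrients, 1 of 11 in the methionine cycle and salvage list lay beyond the pair below by 2-fold. For polyamine genes this was 1 of 12, beside 1.42% of all members, and 0 of either list lay beyond it above (all members 1.06%). In the methionine cycle and salvage list 3 of 11 members had a log2 fold change above 0 (all members 48.9%). The fitted median was −0.18, the median difference −0.25 from replicate 1 and −0.47 from replicate 2, and the length-corrected median −0.29. APIP, an enzyme of methionine salvage, had 9.09 CPM in the combined omission, against 32.1 and 40.7 CPM (log2 fold change −1.99, edgeR adjusted p = 0.48), from 4 counts, against 18 and 26. The next salvage enzymes had values in the same direction: ADI1 had 59.1 CPM, against 90.9 and 134.6 CPM, and ENOPH1 59.1 CPM, against 92.7 and 95.5 CPM. AHCY, which clears the product of methylation, had 350.0 CPM, against 499.2 and 693.4 CPM. MAT2A, which makes S-adenosylmethionine, had 509.1 CPM, against 445.7 and 360.0 CPM. Salvage starts from polyamine synthesis, and of the 12 polyamine genes 1 had a log2 fold change above 0 and 7 lay below both (all members 48.9% and 36.9%), with a median of −0.32. Ornithine decarboxylase ODC1, the first enzyme of the pathway, had 209.1 CPM, against 303.1 and 521.3 CPM, and OAZ2, an antizyme that inhibits it, had 36.4 CPM, against 82.0 and 95.5 CPM. None of these genes passed.

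For tryptophan use, AFMID, which makes kynurenine, had 59.1 CPM in the combined omission, against 28.5 and 21.9 CPM (log2 fold change 1.23, edgeR adjusted p = 0.54). The aryl hydrocarbon receptor AHR, which binds tryptophan metabolites, had 54.5 CPM, against 42.8 and 42.3 CPM. In this list 8 of the 12 members had a log2 fold change above 0 (all members 48.9%), with a median of 0.29. In the NAD list 8 of 19 members were above 0 (all members 48.9%) and the median was −0.12. NAPRT, which makes NAD from nicotinic acid, had 234.1 CPM, against 228.2 and 278.6 CPM, and NAMPT, which makes it from nicotinamide, 70.5 CPM, against 78.4 and 89.2 CPM. QPRT, at the end of the route from tryptophan, had 56.8 CPM, against 49.9 and 47.0 CPM. The NAD genes named here had values near the pair. Beyond it by 2-fold lay 0 of 19, where the shares over all members were only 1.06% above and 1.42% below. A value of 0 in so short a list therefore says little.

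Amino acid response genes leaned upwards in value, with 19 of 26 above 0 (all members 48.9%) and a median of 0.22. SESN2, a leucine sensor that restrains mTORC1, had 34.1 CPM in the combined omission, against 12.5 and 12.5 CPM (log2 fold change 1.43, edgeR adjusted p = 0.55). DDIT3, which encodes the stress factor CHOP, had 52.3 CPM, against 14.3 and 29.7 CPM. The factor ATF4 itself had 275.0 CPM, against 265.7 and 367.9 CPM, and asparagine synthetase ASNS 61.4 CPM, against 46.4 and 67.3 CPM, so both lay inside the pair. Amino acid transporters had 13 of 19 above 0 (all members 48.9%) and a median of 0.39. That median was 0.28 against replicate 1 and 0.18 after the length correction. SLC7A5, the carrier of tryptophan and other large neutral amino acids, had 238.6 CPM, against 189.0 and 147.1 CPM, and its partner SLC3A2 had 209.1 CPM, against 126.6 and 134.6 CPM. None of the members of these lists passed the test.

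Genes of DNA replication had 10 of 34 members above 0 and a median of −0.27, and those of mitosis 8 of 33 and −0.27 (all members 48.9%). The mitosis median was −0.16 against replicate 1 and −0.49 against replicate 2, and that of replication −0.17 and −0.25. CDC45, which opens replication origins, had 18.2 CPM in the combined omission, against 51.7 and 68.9 CPM (log2 fold change −1.72, edgeR adjusted p = 0.40). NUSAP1, a spindle protein, had 56.8 CPM, against 137.3 and 140.9 CPM. The proliferation marker MKI67, with a long transcript, went the other way in value, with 493.2 CPM, against 399.4 and 165.9 CPM. Proliferation genes were therefore divided in direction within the list.

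**Figure D4:**
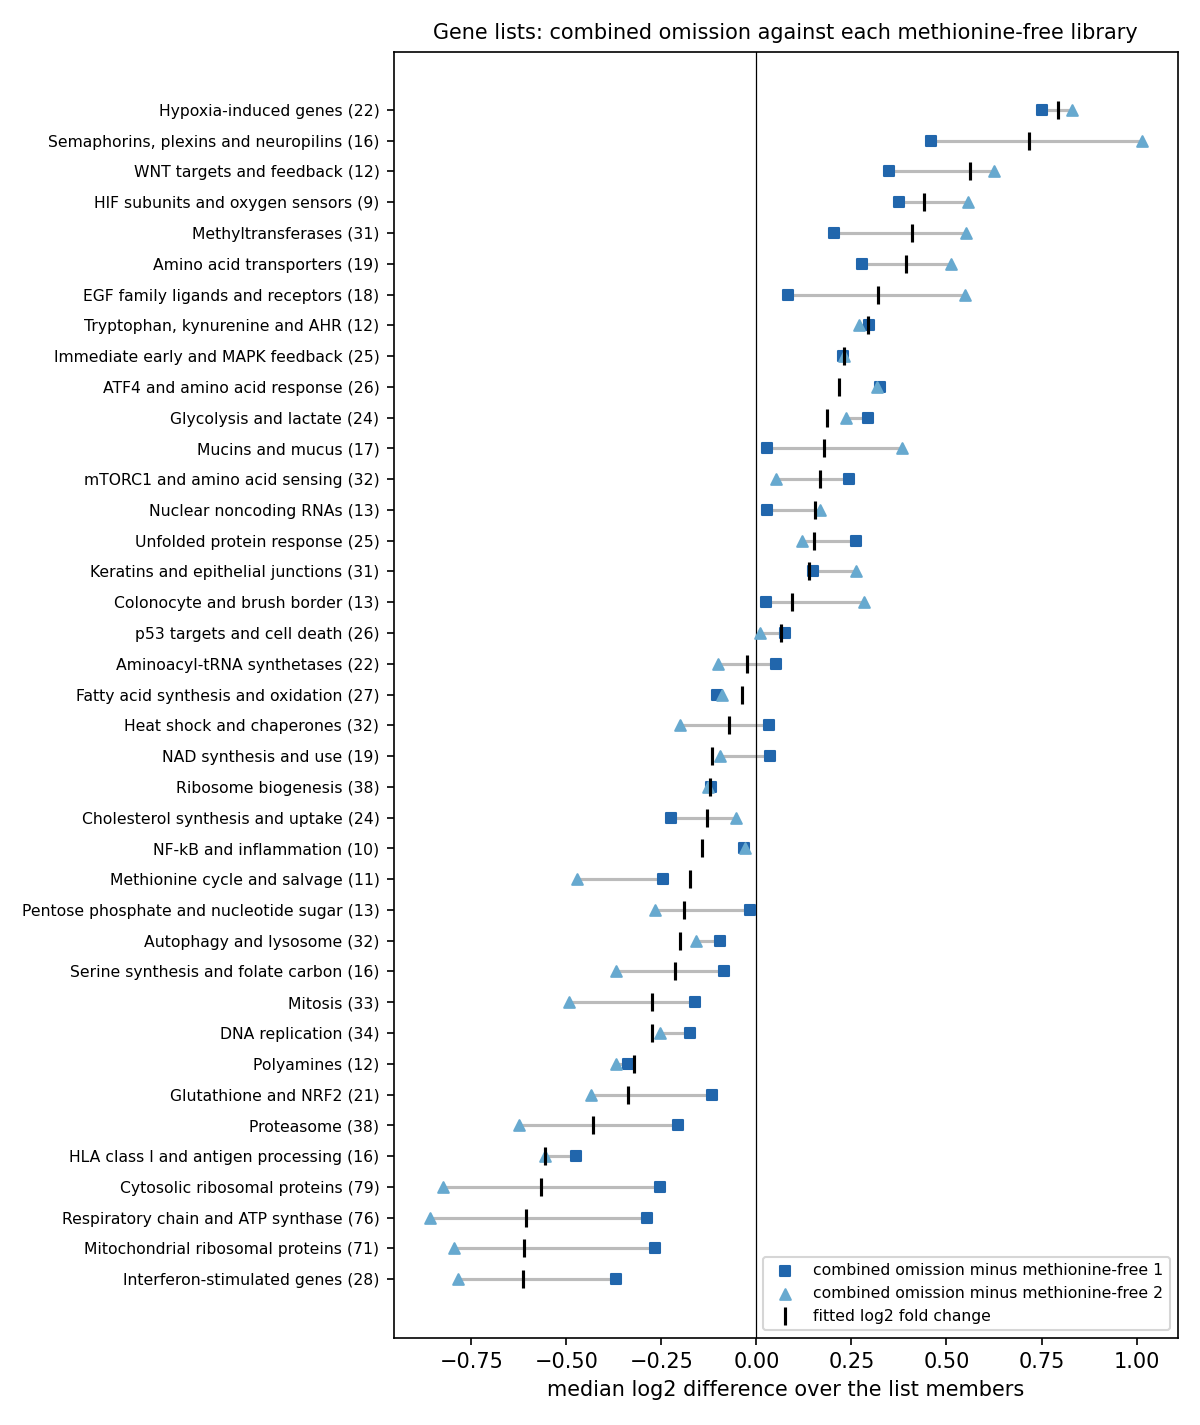
Median log2 difference over the members of each pathway list (number of members in parentheses) between the combined omission and methionine-free replicate 1 (squares) and replicate 2 (triangles), with the fitted log2 fold change as a bar. Hypoxia-induced genes lie at 0.75 and 0.83, close together, while cytosolic ribosomal proteins lie at −0.25 and −0.82.

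The effect of leaving out tryptophan and niacin in food without methionine was also set against its counterpart in food with methionine, that is, the tryptophan/niacin-free library minus the normal library. The test of the difference of these differences, in the same edgeR quasi-likelihood fit with Benjamini-Hochberg adjustment, called 43 members higher (0.499%) and 1 lower (0.0116%), the lower one being DKK1, with 532 members (6.18%) at an unadjusted p below 0.05 in either direction. A positive value means that the combined omission stood higher against methionine-free food than the tryptophan/niacin-free library did against normal food. Each side of this contrast also crosses the title styles, so handling and diet cannot be told apart here either, and the second side rests on 2 lone libraries. The tryptophan/niacin-free library held 14 counts of MYH1, 15 of MYH2 and 12 of MYH4, closely related myosins of skeletal muscle that had at most 1 count in any other library. The part of muscle RNA in this contrast was not tested. Summed over the 16 muscle markers, the levels were 109.1 CPM in the combined omission and 66.0 and 42.3 CPM without methionine, and 121.7 CPM without tryptophan and niacin and 103.7 CPM on normal food. NEB had the most counts of these markers in each library. It had 30 in the combined omission, 31 and 16 without methionine, 25 without tryptophan and niacin and 67 on normal food. The sums thus did not follow the myosins.

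Hypoxia-induced genes were again prominent, with 11 of 22 members called higher and 0 lower, and a median difference of differences of 2.37, against −0.02 over all members. The contrast shares 1 side with the direct comparison, so this is not a separate result. NDRG1 had 2325 CPM in the combined omission and 759.5 and 627.7 CPM without methionine, while it had 310 CPM without tryptophan and niacin and 3333 CPM on normal food. The difference of differences was 5.17 (SE 0.93, edgeR adjusted p = 3.52e-05), and that for HK2 was 4.40 (SE 0.67, edgeR adjusted p = 5.51e-07). NDUFA4L2, a mitochondrial protein induced by low oxygen, lay less far above the pair in the combined omission, with 138.6 CPM, against 82.0 and 97.1 CPM, but had 19 CPM without tryptophan and niacin, against 167.0 CPM on normal food. EGLN3, an oxygen-sensing prolyl hydroxylase, had 79.5 CPM, against 55.3 and 43.8 CPM, and 14.2 CPM without tryptophan and niacin, against 111.0 CPM on normal food. The calls of NDUFA4L2 and EGLN3 rest more on the difference between the foods with methionine than on that between the methionine-free ones. This also held for NDRG1 (log2 −3.42 with methionine, 1.75 without) and HK2 (−2.48 and 1.84). Over the hypoxia list the medians were −1.45 with methionine, with 22 of 22 members below normal food, and 0.79 without.

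Outside the hypoxia list, 4 of 17 mucus genes (MUC2, PIGR, FCGBP and MUC12) and 4 of 24 glycolysis genes (HK2, ENO2, PFKFB3 and PFKFB4) were called higher. GDF15, a stress hormone, had 120.5 CPM in the combined omission, against 42.8 and 78.3 CPM, and 31.6 CPM without tryptophan and niacin, against 147.7 CPM on normal food (difference of differences 3.20, edgeR adjusted p = 0.00137). KDM7A, a histone demethylase, had 54.5 CPM, against 17.8 and 23.5 CPM, and 11.1 CPM without tryptophan and niacin, against 51.4 CPM on normal food (3.58, edgeR adjusted p = 0.00981). DKK1 moved the other way: 75 CPM in the combined omission, against 130.2 and 129.9 CPM, and 199.1 CPM without tryptophan and niacin, against 55.1 CPM on normal food (−2.64, SE 0.67, edgeR adjusted p = 0.0229). GDF15 and KDM7A were chosen after their values were seen. Reads of CCDC183 and of its antisense gene CCDC183-AS1, also called, cannot be told apart without the strand setting of the counting.

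**Figure D5:**
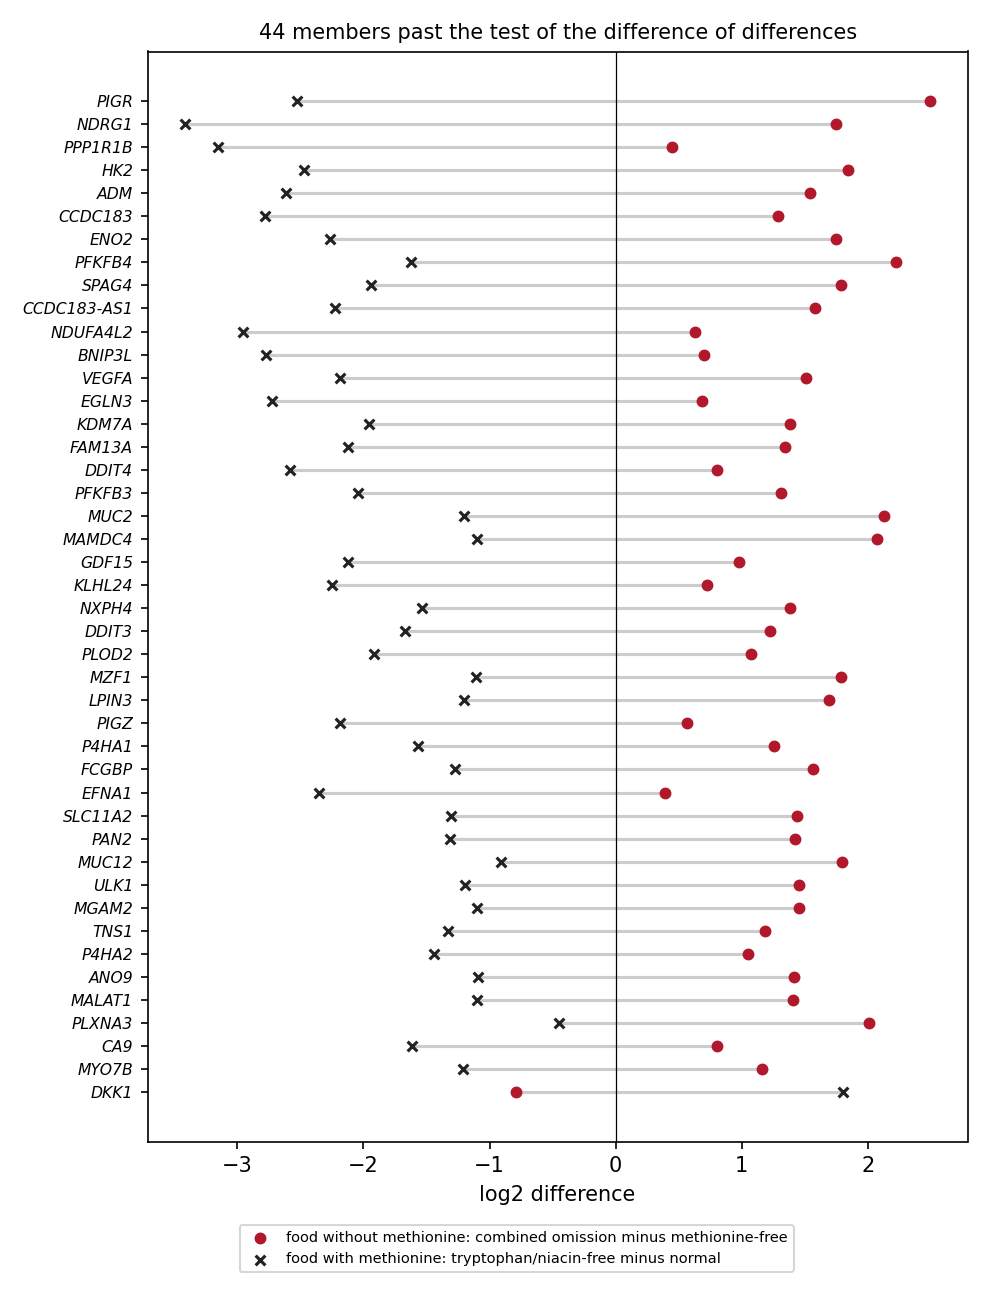
The 44 members past the test of the difference of differences, with the log2 difference of the combined omission from methionine-free food (red) and of the tryptophan/niacin-free from the normal library (black crosses). Of these, 43 lie to the right in red and to the left in black, and DKK1 alone is reversed, at −0.79 in red and 1.80 in black.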

How the data were processed

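Tumour RNA was measured by mRNA sequencing in 5 libraries, and the labels do not number the tumours. The authors deposited estimated counts per gene symbol, 1 file per library, that is, expected counts that need not be whole (15.2% to 17.6% of values above 0 carried decimals). The submitters' processing notes name Subread 2.0.0 with featureCounts, Bowtie2 2.2.8, TopHat2 2.1.1, SAMtools 0.1.18 and the hg19 build. Not given in the sources used here are the annotation, the strand setting and any removal of mouse reads, which may have been counted under human symbols.

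Groups were taken from the treatment labels. Expected counts were rounded. The members, 48 gene lists and tests were chosen with earlier results of these data known. The fit covered all 5 libraries with a separate mean for each diet, in edgeR 4.0.16 and limma 3.58.1 in R 4.3.3 (TMM scaling, quasi-likelihood F-test, Benjamini-Hochberg adjustment over 8613 members, threshold 0.05). Its 1 residual degree of freedom comes from the methionine-free pair, and the same variation was assumed for diets with 1 library (biological coefficient of variation 0.207). The variance of a member was drawn from a trend over members, so a wide pair did not weaken that member's p-value. Log2 CPM differences used a prior count of 2. Ratios of counts carry exact 95% intervals, which cover counting error only. The floor of 3 counts was 6.82 CPM in the combined omission and 5.35 and 4.70 CPM in the pair. Transcript lengths (8291 members, 96.3%), those of the longest coding transcript, came from GENCODE annotation and are unusable for MUC2.

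Genes were named by a rule: all past the threshold, the 12 with the smallest p in each direction among those beyond both libraries, and in each list up to 4 members beyond both and the 2 most abundant. Others were chosen after their values were seen, which also holds for list members named to show a pathway step. Scripts were tested on simulated data. Alternatives were other scaling, filters, an additive model, length and GC corrections, DESeq2 1.42.0, limma-voom, other folds and leaving out each methionine-free library.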

Additional observations from a re-analysis of the deposited data

Results flagged for a closer look

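For 7 members named above, the change on leaving out tryptophan and niacin differed, by the edgeR quasi-likelihood test of the difference itself, between food without and food with methionine. The difference of differences on the log2 scale was 3.35 for MUC2, 2.46 for PLXNA3 and 4.40 for HK2, the members that were called in the direct comparison. It was 4.09 for ENO2, 5.38 for PIGR, 2.96 for MZF1 and 4.07 for PFKFB4, which did not pass there. All 7 were named as members beyond both methionine-free libraries above with the smallest p in the direct comparison. The difference that selected them is also part of this contrast. The test thus partly reuses the selecting values and is not a separate result for these members. In all 7 the combined omission stood above methionine-free food, and the tryptophan/niacin-free library below normal food. For PLXNA3 the second of these differences was small (235.4 CPM, against 322.1 CPM on normal food), and for MZF1 it was 31.6 CPM, against 71.6 CPM. Under total-count scaling PLXNA3 no longer passed this test. MUC2 was not called in the length-corrected fit, which rests for it on an unusable transcript length. The contrast coincides with the styles of the library titles, and a part of handling in it was not tested.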

How the results depend on the processing

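The 3 calls higher (MUC2, PLXNA3 and HK2) were also made with RLE factors and with only the 3 libraries compared. There were 11 calls with a mean of at least 30 counts, all 3 among them, 3 with filterByExpr and 3 with no filter (MUC2, PLXNA3 and MUC5B in both), 1 with the length correction and 1 with length and GC content corrected (NDRG1 in both), and 0 with total-count scaling, DESeq2, limma-voom and the additive model. Limma-voom had 401 members higher and 179 lower at an unadjusted p below 0.05. No setting gave a call lower. The additive model, which averages over both methionine states, turned HK2 to −0.25 without methionine-free replicate 1 and −0.44 without replicate 2, and its calls were 0 and 0 in these fits. Leaving out a methionine-free library left no residual degree of freedom in the model with 1 mean per diet, so these are values with no test: members at least 2-fold above then numbered from 206 to 823 and those below from 189 to 614, in place of 91 and 122. A 1.5-fold line gave 561 above and 581 below, a 3-fold line 5 and 8, and a mean of at least 30 counts 38 and 26. The difference of differences gave 24 members higher and 0 lower with total-count scaling, and 31 and 1 with the length correction. No paired analysis was possible because the labels give the diets no shared replicate numbers. Members with about 10 counts carry large counting errors, and 1 lone library per diet limits every comparison.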

Other observations

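Further gene groups were compared between the combined omission and the methionine-free pair. Of 31 methyltransferases 21 had a log2 fold change above 0 (all members 48.9%), with a median of 0.41 (median transcript 4604 bases). That median was 0.21 against replicate 1 and 0.18 after the length correction. PRMT3, an arginine methyltransferase that acts on the ribosome, had 22.7 CPM, against 53.5 and 53.2 CPM. Iron storage genes stood lower in value: FTH1, the ferritin heavy chain, had 1959 CPM, against 2600 and 3062 CPM, and FTL, the light chain, 1420 CPM, against 1551 and 2171 CPM. Cholesterol synthesis genes had 9 of 24 above 0 and a median of −0.13, and the chaperones of the unfolded protein response 17 of 25 and 0.15. None of these lists had a member past the test.

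The 13 nuclear noncoding RNAs had a median log2 fold change of 0.15, and the 2 most abundant differed in direction. NEAT1 had 786.4 CPM in the combined omission, against 394.0 and 144.0 CPM without methionine. GAS5 had 238.6 CPM, against 255.0 and 347.5 CPM. LYZ, which encodes lysozyme and was nearly the whole sum of the leukocyte marker list, had 876 counts in the combined omission, against 1466 and 2307 counts, while CSF1R and PTPRC were at 0 in all 3 libraries.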
